A study of Mus musculus with 8 samples.

Results

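The enzymes that take triacylglycerol apart, and the proteins that switch them on or off, were followed in the livers of mice with *Usp39* deleted in hepatocytes, a gene that encodes a component of the spliceosome. The 10 genes were chosen by name from what their proteins do, and all 10 were found among the 55385 gene identifiers of the deposited table. They are 8 enzymes (*Pnpla2*, *Pnpla3*, *Lipe*, *Mgll*, *Abhd6*, *Lipa*, *Lipc* and *Aadac*) and 2 regulators (*Abhd5* and *G0s2*). Of the 10, 9 passed the filter on low values, an FPKM (counts scaled to the exon length of the gene and the total count of the liver) that reached 0.5 in 4 or more of the 8 livers. *Pnpla3* did not pass and was not tested.

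Liver RNA was sequenced from 4 *Usp39*-HKO mice and 4 control littermates, all male, 5 weeks old, on the C57BL/6J background and fasted for 16 h, with 1 library per mouse and no pooling. In *Usp39*-HKO mice both *Usp39* alleles carried loxP sites around exon 2, and Cre recombinase was driven by the albumin promoter, which is active in hepatocytes. The sources used here do not show whether every other cell type of the liver kept the gene. The labels call the controls wild type, and the sources used here do not say whether they carried floxed alleles or Cre. Samples are called control 1 to 4 and *Usp39*-HKO 1 to 4 in the order of their deposition, and these numbers pair no mice.

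Stored triacylglycerol sits in lipid droplets and is cut in steps. Adipose triglyceride lipase, encoded by *Pnpla2*, removes the first fatty acid, hormone-sensitive lipase (*Lipe*) acts mainly on the diacylglycerol that remains, and monoacylglycerol lipase (*Mgll*) releases the last fatty acid from glycerol. *Pnpla2* is activated by ABHD5, also called CGI-58, and inhibited by the small protein G0S2, which is abundant in liver. Lysosomes degrade droplets with acid lipase (*Lipa*), and the endoplasmic reticulum uses esterases such as arylacetamide deacetylase (*Aadac*) to mobilise lipid toward very low density lipoprotein.

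Counts on genes summed to between 8589636 and 10418450 per liver, and 3 counts corresponded to 0.288 to 0.349 CPM (counts scaled to the library total), a floor that covers counting error only. *Usp39* itself ranged from 8.76 to 10.4 FPKM in controls and from 8.07 to 8.70 FPKM in *Usp39*-HKO livers without overlap, and its log2 fold change was −0.41 (standard error, SE, 0.11, adjusted p = 0.0212). This value is a total over all exons, most of which lie outside the deleted part, and other liver cells may contribute to it. It therefore does not measure recombination. The defining hepatocyte genes *Alb*, *Ttr* and *Apoa1* were abundant in every liver, and the 8 hepatocyte markers summed to 16107 to 17966 FPKM in controls and 14373 to 19760 FPKM in *Usp39*-HKO livers. The largest part of that sum was *Alb*, at 7170 to 8355 FPKM in controls and 7281 to 9767 FPKM in *Usp39*-HKO livers. The sum therefore does not show how each of the other markers behaved. Control 4 stood apart in holding pancreas RNA, with 785 FPKM summed over 13 acinar genes against 0.458 to 0.987 in the other controls and 1.62 to 4.12 in *Usp39*-HKO livers. Calls that change when control 4 is left out are given without it beside the result. In bulk RNA, fewer cells of a type and less RNA per cell cannot be told apart.

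Promoter sequences are shown for the 2 members whose RNA fell past the threshold, *G0s2* and *Aadac*, and for *Pnpla2*, the enzyme that G0S2 inhibits. RefSeq gave a promoter for all 10 members, 14 start sites in all. The sequences below are the 250 bases before the start site in GRCm38.p6, written 5′ to 3′ on the gene's strand, with matches to the motifs searched in capitals. The *G0s2* window is chr1:193273189-193273438 on the minus strand, the *Aadac* window chr3:60031538-60031787 on the plus strand and the *Pnpla2* window chr7:141454938-141455187 on the plus strand.
G0s2: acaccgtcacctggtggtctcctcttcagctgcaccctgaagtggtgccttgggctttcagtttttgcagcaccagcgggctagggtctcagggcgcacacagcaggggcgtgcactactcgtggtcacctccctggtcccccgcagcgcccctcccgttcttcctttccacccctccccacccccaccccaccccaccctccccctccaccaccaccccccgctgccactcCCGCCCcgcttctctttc
Aadac: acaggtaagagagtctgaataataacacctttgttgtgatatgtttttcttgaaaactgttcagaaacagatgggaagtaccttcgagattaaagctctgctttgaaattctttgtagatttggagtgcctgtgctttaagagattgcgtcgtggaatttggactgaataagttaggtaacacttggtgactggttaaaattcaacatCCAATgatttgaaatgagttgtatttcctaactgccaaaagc
Pnpla2: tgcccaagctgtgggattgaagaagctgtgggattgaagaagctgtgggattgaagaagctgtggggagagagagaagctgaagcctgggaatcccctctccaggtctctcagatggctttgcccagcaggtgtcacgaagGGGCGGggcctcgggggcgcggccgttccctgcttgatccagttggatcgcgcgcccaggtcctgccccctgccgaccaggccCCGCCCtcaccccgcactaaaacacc
The windows of the 2 genes that fell had no motif in common. *G0s2* was rich in G and C (67.2%) and held 1 GC box (GGGCGG), on the minus strand of the gene, 18 bases before the start. *Aadac* was poor in G and C (36.4%, against a median of 52.4% over 32851 RefSeq promoters) and held 1 CCAAT box, 42 bases before the start. *Pnpla2* (63.2% G and C) held 2 GC boxes, 109 and 26 bases before its start. Both strands were searched for 7 motifs, none of which contains another. The shares of all promoters with a match were 12.4% for the TATA box TATAAA, 33.8% for CCAAT, 32.7% for GGGCGG, 6.02% for the E-box CACGTG, 14% for the nuclear receptor motif AGGTCA, 3.17% for the forkhead motif GTAAACA and 1.55% for the cyclic AMP response element TGACGTCA. A GENCODE transcript of *Aadac* starts further upstream, at 60025717, and its promoter was not examined. A match is a description of these letters and not a bound site.

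In control livers the 10 genes spanned more than 3 orders of magnitude in FPKM, which can be compared between genes because it is per length. The inhibitor *G0s2* was the highest, at 413 ± 39.5 FPKM (SD, n = 4), followed by *Aadac* at 232 ± 7.17 FPKM. Each liver held more *G0s2* than *Aadac*, and more *Aadac* than any other enzyme of the set. *Mgll*, *Pnpla2*, *Lipc* and *Lipa* formed a middle tier, with mean levels of 94.5, 92.4, 67.4 and 66.5 FPKM, and neighbours in that order overlapped between livers. *Abhd6* followed at 27.2 ± 3.15 FPKM, below all of these. *Abhd5* and *Lipe* overlapped with means of 4.18 and 3.67 FPKM, and *Pnpla3* was at 0.123 FPKM. In *Usp39*-HKO livers the order differed at *Pnpla2*, whose lowest liver, at 122 FPKM, lay above the highest *Mgll* level of 114 FPKM, and *Lipa* ranked above *Lipc* by their means, 72.8 and 65.2 FPKM, with overlapping ranges. *Abhd5* stayed above *Lipe* in rank, and their ranges no longer overlapped, as the lowest *Abhd5* level was 4.87 FPKM and the highest *Lipe* level 4.18 FPKM.

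**Figure D1:**
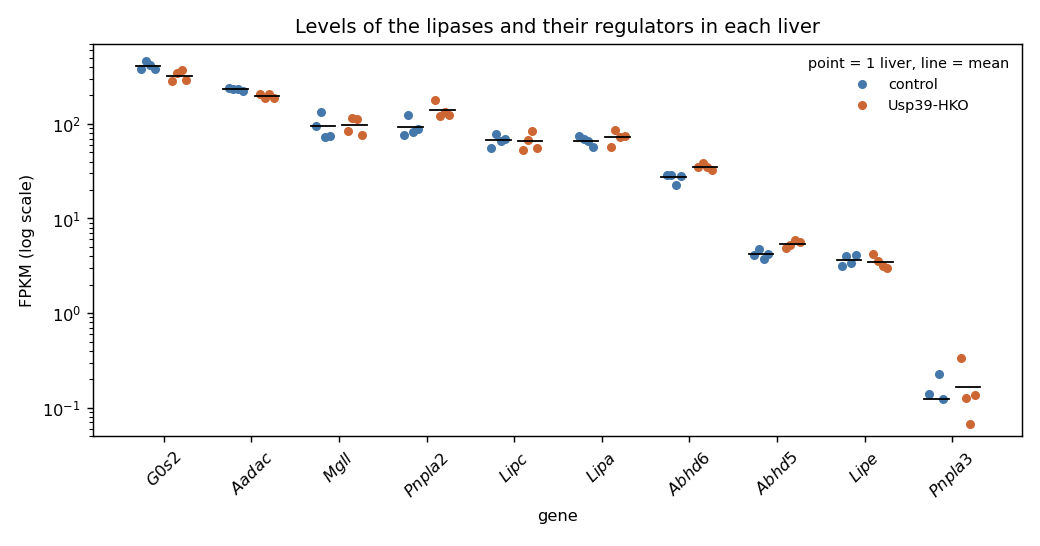
FPKM on a log scale for the 10 genes in each of the 4 control and 4 Usp39-HKO livers; a point is 1 liver and a line the group mean. The *Pnpla3* level of control 2 was 0 and has no point. *G0s2* and *Aadac* were the highest in both genotypes, and their *Usp39*-HKO points lie below all control points.

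Between genotypes, 2 of the 9 tested members changed at an adjusted p under 0.05 in edgeR's quasi-likelihood test, and both were lower in *Usp39*-HKO livers. They were *G0s2* and *Aadac*, the 2 most abundant. Over all 14340 genes tested, 22.5% were called, 10.9% higher and 11.6% lower, so 2 of 9 is close to the share of all genes and says nothing particular about the members. At the study's own cutoff, which asks for an unadjusted p under 0.05 and a log2 change beyond 0.5 or −0.5, *G0s2* alone passed, against 21.7% of all genes. The other 7 members had adjusted p between 0.179 and 0.608. Over the 9 members the median log2 fold change was −0.19, and over all genes −0.0015. These fold changes use TMM factors, which lay from 0.911 to 0.94 for the control libraries and from 1.01 to 1.19 for those of *Usp39*-HKO mice, and so are relative to the typical gene.

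The direction of the calls depended on that scaling. When libraries were scaled by their totals alone, the median log2 fold change of all genes moved to 0.24, and 4 members were called, with *Pnpla2*, *Abhd5* and *Abhd6* higher and *G0s2* lower. Over all genes 3525 were then called higher and 696 lower. In limma on log2(FPKM + 1), which also takes totals alone, 3 members were called, all higher, beside 3031 genes higher and 637 lower of the 14340. In deposited FPKM the groups did not overlap for 4 members, 2 higher (*Abhd5*, *Abhd6*) and 2 lower (*G0s2*, *Aadac*), against 23.9% of all genes higher and 4.81% lower. After division by the TMM factor they did not overlap for 2 members, both lower, and for none in the higher direction, against 13.0% of all genes lower and 11.8% higher. *G0s2* and *Aadac* thus lay below all controls on both scales.

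**Figure D2:**
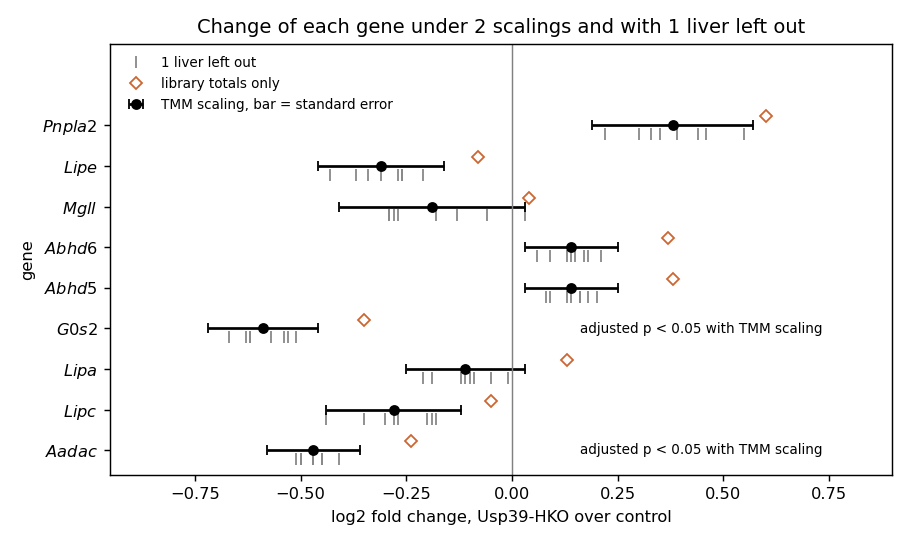
Log2 fold change (Usp39-HKO relative to control) for the 9 tested members. Black points are edgeR with TMM scaling with the standard error, open diamonds edgeR with library totals alone, and grey ticks the TMM fit with 1 liver left out. Library totals move every gene to the right by a similar amount, and *Mgll* and *Lipa* cross 0.

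Of the 2 regulators of *Pnpla2*, the inhibitor was the tested member with the largest absolute log2 fold change. *G0s2* (ENSMUSG00000009633, chr1:193272161-193273217, minus strand) encodes the G0/G1 switch protein that binds adipose triglyceride lipase and blocks it. Its level was 381, 466, 422 and 384 FPKM in controls 1 to 4. In *Usp39*-HKO 1 to 4 it was 284, 344, 372 and 292 FPKM. All 4 *Usp39*-HKO livers were below all 4 controls, and the nearest livers were 372 and 381 FPKM. edgeR gave a log2 fold change of −0.59 (SE 0.13, adjusted p = 0.00947), a level 0.665 times that of controls on the TMM scale and 0.781 times in FPKM as deposited. Without control 4 the log2 fold change was −0.63 (adjusted p = 0.021). With library totals alone it was −0.35 (adjusted p = 0.048). In limma on log2(FPKM + 1) it was −0.36 (adjusted p = 0.0569), the same direction but short of the threshold. In limma with voom, which used TMM factors, it was −0.60 (adjusted p = 0.00868).

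*Abhd5* (ENSMUSG00000032540, chr9:122351608-122381524, plus strand) encodes the coactivator, and mutations in it cause a neutral lipid storage disease. Its level was 4.11, 4.73, 3.69 and 4.19 FPKM in controls 1 to 4. It was 4.87, 5.22, 5.98 and 5.61 FPKM in *Usp39*-HKO 1 to 4. Every *Usp39*-HKO liver was above every control in FPKM (two-sided exact permutation p = 0.029, which is the lowest value 4 against 4 can give), but after TMM scaling the groups overlapped (exact permutation p = 0.26). With TMM scaling the log2 fold change came to 0.14 (SE 0.11, adjusted p = 0.409). Of its exon bases, 16% overlap an antisense gene, and since the sources used here do not give the strand setting of the counting, reads of the pair cannot be told apart.

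**Figure D3:**
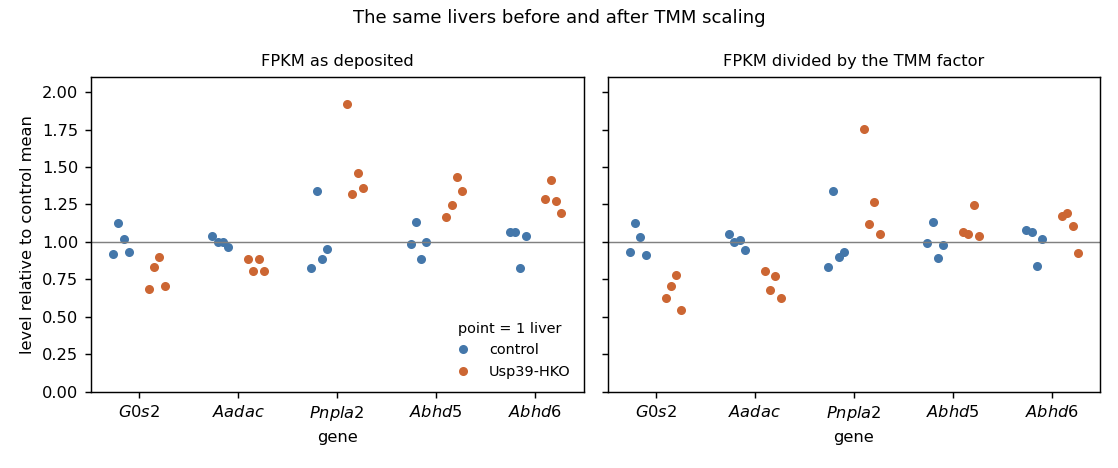
Level of 5 members in each liver divided by the control mean, with FPKM as deposited on the left and FPKM divided by the TMM factor on the right. *G0s2* and *Aadac* lie below the controls in both panels, whereas the *Abhd5* and *Abhd6* groups are apart only on the left.

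*Pnpla2* (ENSMUSG00000025509, chr7:141455198-141460743, plus strand) encodes the first enzyme of droplet lipolysis. Its level was 76.2, 124, 81.8 and 87.8 FPKM in controls 1 to 4. In *Usp39*-HKO 1 to 4 it was 178, 122, 135 and 126 FPKM. Only control 2 reached the *Usp39*-HKO range, and *Usp39*-HKO 1 was the highest of all. Mean FPKM was 92.4 ± 21.5 against 140 ± 25.6 (control against *Usp39*-HKO; SD, n = 4 each; two-sided exact permutation test, p = 0.057). The log2 fold change of 0.38 (SE 0.19) missed the threshold, with an adjusted p of 0.18. It was 0.55 without control 2 (adjusted p = 0.0462) and 0.60 with library totals alone (adjusted p = 0.0212), so whether it passed depended on 1 liver and on the scaling.

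*Pnpla3* (ENSMUSG00000041653, chr15:84167837-84187236, plus strand), a relative of *Pnpla2* linked to fatty liver in humans, is known as a gene induced by feeding. In these fasted livers it had 2, 0, 3 and 2 counts in controls 1 to 4 and 5, 2, 1 and 2 counts in *Usp39*-HKO 1 to 4, or 17 counts in all. Most of these lie at or under the floor of 3 counts, and no difference was detectable at this depth. The 0 of control 2 allows up to 0.303 CPM.

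The next enzymes along the droplet pathway did not pass the test. *Lipe* (ENSMUSG00000003123, chr7:25379527-25398710, minus strand) was at 3.183, 4.028, 3.402 and 4.077 FPKM in controls and at 4.178, 3.516, 3.169 and 3.011 FPKM in *Usp39*-HKO livers. The highest and the lowest liver were both *Usp39*-HKO. Its log2 fold change was −0.31 (SE 0.15, adjusted p = 0.179), and it was −0.43 (adjusted p = 0.0472) without *Usp39*-HKO 1. An antisense gene covers 15.6% of its exon bases. *Lipe* is also an adipocyte gene. The adipocyte markers *Lep* and *Retn* were at 0 in all 8 livers, and *Adipoq* did not exceed 0.169 FPKM. *Cidea*, of the same list, was at 0 to 0.0977 FPKM in controls and 0.461 to 1.23 FPKM in *Usp39*-HKO livers. It had at most 13 counts in a liver and did not pass the filter. The 8 markers summed to 7.85 to 11.9 FPKM in controls and 9.84 to 14.9 FPKM in *Usp39*-HKO livers. *Lipe* is itself among the 8, and *Fabp4*, at 4.28 to 10.5 FPKM, made up most of the rest, so this sum is no separate measure of adipocyte RNA.

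*Mgll* (ENSMUSG00000033174, chr6:88724412-88828360, plus strand), which completes the cascade and also degrades the endocannabinoid 2-arachidonoylglycerol, varied most between control livers among the tested members. Its level was 95.1, 134, 73.2 and 75.3 FPKM in controls 1 to 4 and 84.5, 114, 114 and 76.7 FPKM in *Usp39*-HKO 1 to 4. The control coefficient of variation was 30%, and the groups overlapped throughout. In edgeR it came to a log2 fold change of −0.19 (SE 0.22, adjusted p = 0.576), and its sign turned to 0.03 without control 2 and to 0.04 with library totals alone.

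*Abhd6* (ENSMUSG00000025277, chr14:8002902-8056763, plus strand) encodes a second monoacylglycerol hydrolase, which lies in membranes and also cuts lysophospholipids. Its level was 29.06, 29.05, 22.55 and 28.29 FPKM in controls 1 to 4. In *Usp39*-HKO 1 to 4 it was 34.98, 38.41, 34.74 and 32.56 FPKM. As with *Abhd5*, all *Usp39*-HKO livers were above all controls in FPKM (two-sided exact permutation test, p = 0.029), and the groups overlapped after TMM scaling (exact permutation p = 0.26). edgeR gave a log2 fold change of 0.14 (SE 0.11, adjusted p = 0.424), against 0.37 (adjusted p = 0.0264) with library totals alone. A stretch of 623 bases of its transcripts is shared at 96.1% identity with *Gm1833*, so some reads could belong to either.

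Outside the droplet, the lysosomal and the vascular enzyme overlapped between genotypes. *Lipa* (ENSMUSG00000024781, chr19:34492318-34527474, minus strand), which is also abundant in macrophages, was at 74.5, 68.8, 65.7 and 57.0 FPKM in controls and at 56.9, 86.5, 72.5 and 75.2 FPKM in *Usp39*-HKO livers. Its lowest and its highest liver were *Usp39*-HKO 1 and 2. With TMM scaling the log2 fold change came to −0.11 (SE 0.14, adjusted p = 0.608), and it was 0.13 with library totals alone. The 8 markers of Kupffer cells and macrophages, all of them with counts, summed to 248 to 335 FPKM in controls and to 427 to 699 FPKM in *Usp39*-HKO livers. Their part in the *Lipa* level was not tested.

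*Lipc* (ENSMUSG00000032207, chr9:70798128-70952226, minus strand) encodes hepatic lipase, which hepatocytes secrete and which acts on lipoproteins at the sinusoid wall. Its level was 56.28, 77.56, 65.9 and 69.96 FPKM in controls and 52.55, 67.75, 84.72 and 55.93 FPKM in *Usp39*-HKO livers. The *Usp39*-HKO livers held both the lowest and the highest value. Its log2 fold change was −0.28 (SE 0.16, adjusted p = 0.246), and it was −0.44 without *Usp39*-HKO 3 (adjusted p = 0.0545) and −0.18 without *Usp39*-HKO 4.

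*Aadac* (ENSMUSG00000027761, chr3:60025717-60040160, plus strand) encodes an esterase of the endoplasmic reticulum, abundant in hepatocytes, that also cleaves drugs with acyl groups. It was the least variable member between controls, at 241, 231, 232 and 223 FPKM. In *Usp39*-HKO 1 to 4 it was 205, 187, 205 and 187 FPKM. All *Usp39*-HKO livers were below all controls, with a mean of 196 ± 10.5 FPKM against 232 ± 7.17 FPKM (SD, n = 4 each). In edgeR it came to a log2 fold change of −0.47 (SE 0.11, adjusted p = 0.0118), or 0.721 times the control level on the TMM scale, and it was −0.50 without control 4 (adjusted p = 0.029). With library totals alone it was −0.24 and missed the threshold (adjusted p = 0.0819).

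The members can also be compared within a liver, where scaling between libraries drops out. The ratios were chosen by role, with earlier results of these data known, and they share genes, so they are not independent of each other. Nor are they independent of the fold changes above, as a lower *G0s2* level alone raises both ratios to *G0s2*. How often ratios of other gene pairs separate the genotypes was not worked out. The ratio of *Pnpla2* to its inhibitor *G0s2*, in FPKM, was 0.2, 0.266, 0.194 and 0.228 in controls 1 to 4. It was 0.626, 0.356, 0.362 and 0.431 in *Usp39*-HKO 1 to 4, above all controls in each liver. On the log2 scale the difference was 0.97 (SE 0.22), a 1.96-fold higher ratio (exact permutation p = 0.029, two-sided, adjusted to 0.038 over the 4 ratios tested). With 1 liver left out in turn the difference lay between 0.79 and 1.06.

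The ratio of the activator *Abhd5* to the inhibitor *G0s2* was 0.0108, 0.0102, 0.00875 and 0.0109 in controls. In *Usp39*-HKO livers it was 0.0172, 0.0152, 0.0161 and 0.0193, again above all controls. The difference was 0.74 on the log2 scale (SE 0.10), or 1.67-fold (exact permutation p = 0.029, adjusted 0.038), and 0.67 to 0.79 with 1 liver left out. Of the 2 ratios to *G0s2*, this was the tighter, with a standard deviation of 0.15 in each genotype.

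Among the enzymes, the ratio of *Lipe* to *Pnpla2* was 0.0418, 0.0325, 0.0416 and 0.0464 in controls and 0.0235, 0.0288, 0.0236 and 0.024 in *Usp39*-HKO livers. Every *Usp39*-HKO liver was below every control, and the difference was −0.70 on the log2 scale (SE 0.13), or 0.618-fold (exact permutation p = 0.029, adjusted 0.038). The ratio of lysosomal *Lipa* to *Pnpla2* overlapped between genotypes, from 0.555 to 0.978 in controls and from 0.32 to 0.707 in *Usp39*-HKO livers (log2 difference −0.49, SE 0.30, exact permutation p = 0.17). A ratio of *Pnpla2* to *Pnpla3* could not be formed in FPKM, as *Pnpla3* was at 0 in control 2. With 0.5 counts added, an addition made after seeing the data, its log2 difference was 0.08 (exact permutation p = 0.97).

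**Figure D4:**
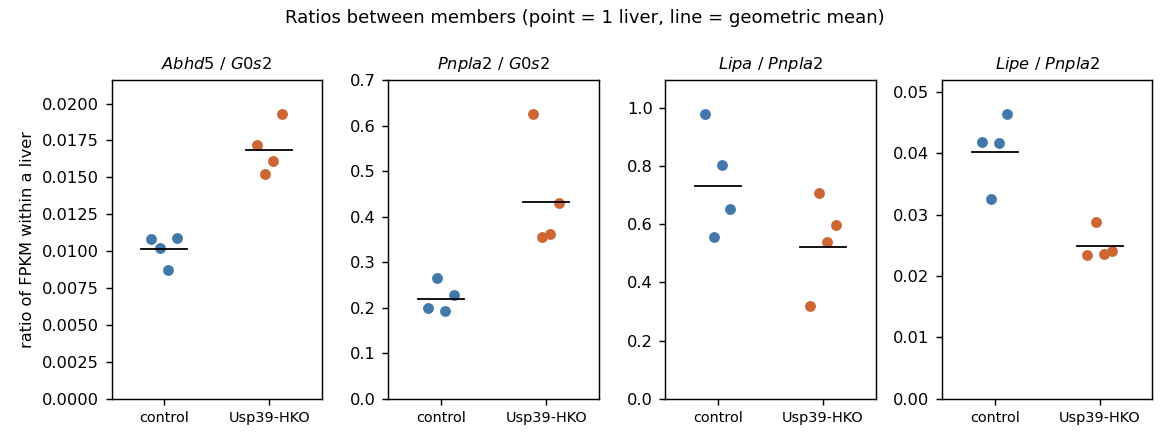
Ratio of FPKM of 2 members within each liver, from a linear axis starting at 0, with 1 point per liver and the geometric mean as a line. In *Usp39*-HKO livers *Abhd5* / *G0s2* and *Pnpla2* / *G0s2* lie above all controls, *Lipe* / *Pnpla2* lies below all controls, and *Lipa* / *Pnpla2* overlaps.

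The summed FPKM of the 8 enzymes overlapped between genotypes, at 545 to 669 in controls against 556 to 649 in *Usp39*-HKO livers, but the shares of some enzymes did not. *Pnpla2* made up 13.2% to 18.5% of the sum in controls against 19.7% to 28.8% in *Usp39*-HKO livers. *Aadac* made up 34.6% to 42.6% in controls against 30.2% to 33.6% in *Usp39*-HKO livers. These ranges do not overlap, and neither do those of *Abhd6*, 4.14% to 5.18% and 5.36% to 6.2%. The shares of *Lipe*, *Mgll*, *Lipa* and *Lipc* overlapped. Shares of a sum are tied to each other, so a lower share of *Aadac*, the largest, by itself raises those of other enzymes. As levels, *Pnpla2* overlapped in FPKM and *Abhd6* overlapped after TMM scaling. How often shares within other gene sets separate the genotypes was not worked out.

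Control 2 was the highest control for 5 of the 9 tested members (*Pnpla2*, *Mgll*, *Abhd5*, *G0s2* and *Lipc*) and the lowest for none. *Usp39*-HKO 1 was the highest of its genotype for *Pnpla2* and *Lipe* and the lowest for *Abhd5*, *G0s2*, *Lipa* and *Lipc*. The wide *Pnpla2* ranges therefore rested on 1 liver in each genotype.

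Around the members, lists of related genes were counted in the same fit, to be read against the 10.9% of all genes called higher and the 11.6% called lower. Without control 4 the counts over all genes were 1020 higher and 1023 lower, and with library totals alone 3525 and 696. Of 14 droplet proteins that gate access to the stored fat, 12 were tested, 3 were higher and 1 lower, with a median log2 fold change of 0.02. The largest rise was that of *Hilpda*, whose small protein, like G0S2, binds and inhibits adipose triglyceride lipase. Its level was 10.7, 13.4, 8.87 and 8.88 FPKM in controls 1 to 4 and 19.5, 23.8, 41.1 and 44.1 FPKM in *Usp39*-HKO 1 to 4. The groups did not overlap, and the log2 fold change was 1.37 (SE 0.24, adjusted p = 0.00316). The 2 inhibitor genes thus moved in opposite directions, also with library totals alone (*Hilpda* 1.62, adjusted p = 0.00149). The fall of *G0s2* nevertheless missed the threshold in limma on log2(FPKM + 1). In FPKM *G0s2* was 34.6 to 47.6 times *Hilpda* in controls and 6.61 to 14.6 times in *Usp39*-HKO livers, values worked out after both changes were seen and given without a test. The ratio of *Pnpla2* to both inhibitors summed was 0.19 to 0.259 in controls against 0.326 to 0.586 in *Usp39*-HKO livers. As that sum is mostly *G0s2*, this largely repeats the ratio of *Pnpla2* to *G0s2*. The ratio of *Pnpla2* to *Hilpda* alone overlapped, at 7.15 to 9.89 and 2.85 to 9.11.

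Among the other droplet genes, *Cidec*, which encodes a protein that enlarges droplets by fusion, rose from 65.7 ± 28.2 to 148 ± 26.2 FPKM (SD, n = 4 each), a log2 fold change of 0.95 (adjusted p = 0.0236). The fall was that of *Aup1*, whose droplet protein recruits the ubiquitin machinery, at −0.43 (adjusted p = 0.0288). Without control 4 a single gene of this list was called, *Hilpda* (1.28, adjusted p = 0.0151), and with library totals alone 4 were higher and none lower.

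The carboxylesterases, which also hydrolyse triacylglycerol and cholesteryl ester in the endoplasmic reticulum, included larger changes than any member. Of 17 listed, 12 were tested, 7 were lower and 3 higher, with a median log2 fold change of −0.72. The largest falls were those of *Ces3b*, from 113 ± 11.7 to 16.3 ± 12.9 FPKM (SD, n = 4 each), and *Ces3a*, from 566 ± 35.1 to 161 ± 107 FPKM, with log2 fold changes of −3.00 (adjusted p = 0.00355) and −2.02 (adjusted p = 0.0143). The largest rises were those of *Ces2c* (1.54, adjusted p = 0.014) and *Ces2e* (0.88, adjusted p = 0.00304). The counts were 6 lower and 3 higher with library totals alone, and 5 and 3 without control 4. Sequence shared between genes of this family was not examined, and how reads shared between genes were counted is not given in the sources used here.

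Of 23 other lipases of neutral lipids and glycerolipids, 11 were tested, 2 were higher and 3 lower, with a median log2 fold change of −0.32. *Lpl*, lipoprotein lipase, rose from 14.5 ± 0.821 to 35.3 ± 16.6 FPKM (SD, n = 4 each), a log2 fold change of 1.02 (adjusted p = 0.00894). *Dagla*, a diacylglycerol lipase, was at 0.284 to 0.425 FPKM in controls and 0.645 to 1.32 FPKM in *Usp39*-HKO livers. Its log2 fold change was 1.07 (adjusted p = 0.0122). It passed the filter only through the *Usp39*-HKO livers, where it was higher, so its call is not independent of the filter. The related *Daglb* fell by 0.68 (adjusted p = 0.0111) and *Pnpla6*, which encodes neuropathy target esterase, fell by 0.46 (adjusted p = 0.015). With library totals alone 3 were higher and 1 lower, and the counts without control 4 were 2 higher and 2 lower, as *Pnpla8* (−0.38, adjusted p = 0.049), a lipase of mitochondria and peroxisomes, went to an adjusted p of 0.0826. Macrophages and stellate cells are known to express *Lpl*. Beside the Kupffer cell sums above, 7 stellate and fibroblast markers summed to 72.7 to 83 FPKM in controls and 115 to 258 FPKM in *Usp39*-HKO livers. The 5 cholangiocyte markers summed to 26.4 to 28.7 and 64.1 to 285 FPKM. Most of that sum was *Spp1*, at 23.2 to 25 FPKM in controls and 59.8 to 263 FPKM in *Usp39*-HKO livers, so it mostly follows that gene. *Krt19* and *Epcam* were higher in each *Usp39*-HKO liver than in every control, as were 23.9% of all genes in deposited FPKM. *Krt7* and *Sox9* overlapped with controls through *Usp39*-HKO 1 alone, at 0.19 and 1.54 FPKM. *Sox9* was at 1.34 to 2.11 FPKM in controls and 3.88 to 7.4 FPKM in *Usp39*-HKO 2 to 4, with a log2 fold change of 1.10. The part of macrophages, stellate cells and cholangiocytes in the *Lpl* rise was not tested. *Pnlip* and *Cel*, pancreatic enzymes of the same list, reached 54.4 and 32.6 FPKM in control 4 and at most 0.234 and 0.14 FPKM in any other liver, and did not pass the filter.

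Of 8 regulators of the vascular lipases examined, all tested, 1 was lower, with a median log2 fold change of −0.22 over the list. This was *Lmf1*, a maturation factor shared by lipoprotein lipase and hepatic lipase (−0.47, adjusted p = 0.0224). Its call was lost without control 4 (−0.45, adjusted p = 0.0662) and with library totals alone (−0.24, adjusted p = 0.141).

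Of 14 genes of fasting and feeding signals that set lipase levels or activity, all tested, 8 were lower, against 11.6% of all genes, with a median log2 fold change of −0.41 over the list. *Pde3b*, a phosphodiesterase through which insulin lowers cyclic AMP, fell by 0.95 (adjusted p = 0.000922), and *Gcgr*, the glucagon receptor, fell by 0.92 (adjusted p = 0.00166). Both genes were on the same side of the threshold with library totals alone, where 4 genes of the list were lower and 1 higher, and without control 4, where 6 were lower and 1 higher.

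**Figure D5:**
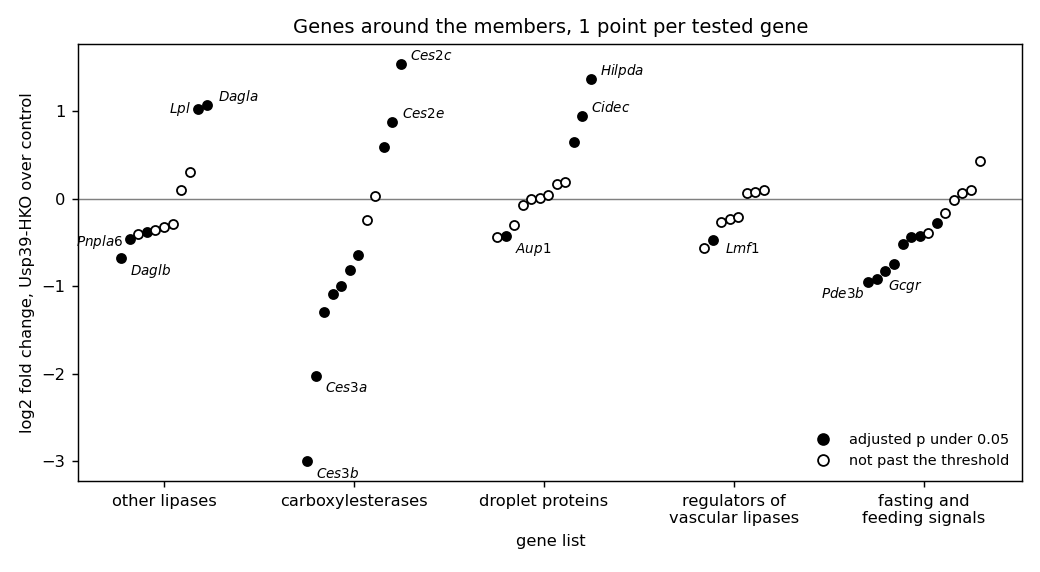
Log2 fold change with TMM scaling for each tested gene of the 5 lists around the members; filled points had an adjusted p under 0.05 in edgeR. The carboxylesterases spread widest, from −3.00 for *Ces3b* to 1.54 for *Ces2c*, and *Hilpda* is the highest of the droplet proteins.

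Of the remaining cell types, 6 endothelial markers summed to 97.5 to 109 FPKM in controls and 102 to 106 FPKM in *Usp39*-HKO livers. That sum joined markers that differed in opposite directions in FPKM as deposited. On that scale 23.9% of all genes were apart and higher, and 4.81% apart and lower. The marker levels were not divided by the TMM factor. *Lyve1* was at 20.9 to 28.8 FPKM in controls and 8.02 to 19.1 FPKM in *Usp39*-HKO livers. *Pecam1* was at 7.01 to 8.15 and 9.1 to 10.3 FPKM, *Cdh5* at 16.3 to 17.5 and 19 to 24.7 FPKM, and the other endothelial markers overlapped. The 5 neutrophil markers summed to 23.8 to 55.6 and 14.7 to 88.5 FPKM, overlapping, and the 5 erythroid genes to 369 to 771 and 155 to 364 FPKM, lower in each *Usp39*-HKO liver.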

How the data were processed

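Liver RNA-seq of 4 control and 4 *Usp39*-HKO mice was analysed. Per the labels, the authors used Trim Galore 0.6.1, FastQC 0.11.9, HISAT2, featureCounts and DESeq2, and Picard without a stated role, with reads aligned to mm10. The annotation release, strand setting and treatment of multi-mapping reads are not given in the sources used here. The authors deposited raw counts per gene without normalization, the gene length in bases (a value of its own kind), and FPKM computed from both and the total count of the liver. Counts, lengths and totals gave the deposited FPKM back within a relative difference of 1.96e-07. Columns of the authors' DESeq2 comparison (deposited mean normalized signal, log2 fold change, scores for its standard error and Wald statistic, and p-values) were not used. Repeated entries (314) differed only in symbol and were read once.

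Genes whose FPKM reached 0.5 in 4 or more of 8 livers were tested with edgeR 4.0.16 (glmQLFit, glmQLFTest, TMM factors, no covariates, R 4.3.3). P-values are two-sided and Benjamini-Hochberg adjusted over all 14340 genes, with a threshold of 0.05. Levels and ratios were compared with exact permutation tests over 70 assignments (SciPy 1.17.1). Coordinates and exon overlaps came from GENCODE vM21 on GRCm38, which holds 99.6% of the identifiers and the same exon length for every member, and promoters from RefSeq on GRCm38.p6. Per-liver totals of 8589636 to 10418450 counts gave floors of 3 counts at 0.288 to 0.349 CPM. PCR reads without molecular identifiers are not independent molecules, so floors cover counting error only. Chi-square over its degrees of freedom was 7.02 to 36.4 for livers of 1 genotype, beyond counting error, so errors are those between mice.

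The 10 members, the related gene lists, the marker lists and the ratios were chosen with earlier results of these data known. All members are named, and for each related list the 2 called genes with the largest rise and the 2 with the largest fall. Called genes outside this rule are counted but mostly not named. *Pnpla8* and the markers *Fabp4*, *Cidea*, *Spp1*, *Krt19*, *Epcam*, *Krt7*, *Sox9*, *Lyve1*, *Pecam1* and *Cdh5* were named after their values were seen. Separately, 2 genes were taken out of the lists and their counts and are not reported here. The hepatocyte, adipocyte and pancreas markers *Alb*, *Ttr*, *Apoa1*, *Lep*, *Retn*, *Adipoq*, *Pnlip* and *Cel* are named as defining genes. Alternatives were DESeq2 1.42.0, limma 3.58.1 on log2(FPKM + 1), log2(FPKM + 0.1) and with voom, other scaling factors, other filters and each liver left out. The tests were tested on simulated data first.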

Additional observations from a re-analysis of the deposited data

Results flagged for a closer look

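In 26 groups of 4 livers examined for a liver far from the other 3, chance alone marks about 1 in 20. The *Abhd6* level of control 3, 22.6 FPKM, lay apart from the other controls at 28.3 to 29.1 FPKM, with a gap of 0.882 of the group's range. The *Lipe* to *Pnpla2* ratio of *Usp39*-HKO 2, 0.0288, lay apart from the other *Usp39*-HKO livers at 0.0235 to 0.024, with a gap of 0.917 of the range, and was still below all controls.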

How the results depend on the processing

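Of 160 member fold changes under alternatives, 137 kept direction and side of the threshold. Reversed were *Mgll*, to 0.04 with library totals alone, 0.06 in limma on log2(FPKM + 1), 0.06 with 0.1 added instead and 0.03 without control 2 (range −0.29 to 0.03 with 1 liver left out), and *Lipa*, to 0.13, 0.12 and 0.12 in the first 3 of these settings. The cause was not tested. *Lipe* and *Pnpla2* each crossed the threshold when 1 liver was left out, as given above. Members called numbered 4 with library totals alone and 1 at the study's cutoff, against 2, and 2 to 3 with 1 liver left out. Genes called numbered 3225, with 1595 at a mean FPKM of at least 5, where 6672 genes were tested, and 1931 to 3510 with 1 liver left out (1931 without control 3, 2043 without control 4 and 2094 without *Usp39*-HKO 4). With library totals alone 3525 were higher and 696 lower, against 1561 and 1664. No paired analysis was possible because the sources used here do not give the litter of each mouse or any other pairing. With 1 liver left out of a ratio, 3 against 4 livers cannot go below an exact permutation p of 0.057.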
